A study of Mus musculus with 58 samples.

Results

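Genes for cholesterol and fatty acid synthesis were followed through all RNA libraries of a study of hematopoietic stem cells (HSCs) from mice on different diets. The 8 genes, of 55376 in the count tables, were Hmgcs1, Fdft1, Sqle, Insig1, Acly, Acaca, Fasn and Scd2. They were chosen by earlier results on these same RNA counts, in which several of them differed between diet groups or between knockdown and scramble. Their RNA levels and fold changes are therefore a description. How many of them passed the threshold of each comparison is given as part of it, beside the share of all genes that passed, and nothing is read from these counts in any comparison. Test results are given for chromatin and for other pathway genes. The lists of those genes were drawn up with earlier results of these data known, so their p-values do not stand on their own.

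All mice on the diets were C57BL/6 males, and there were 6 diet groups. Old mice (24 to 26 months) had free access to food for life (OAL), lifelong 40% caloric restriction (OCR), or the same restriction ended by 4 weeks of free feeding (OCRRF). Young mice (3 to 4 months) were fed freely (YAL), restricted for 4 weeks (YCR; 20% in the first week, then 40%), or restricted and then refed for 4 weeks (YCRRF). Each diet group had 4 RNA libraries except OCRRF, which had 2. HSCs were sorted as Lin- Sca-1+ c-Kit+ CD34- Flk2- CD150+ cells. In a second experiment, aged HSCs were given lentiviral shRNAs overnight and transplanted, with CD45.1 myeloid progenitors, into lethally irradiated young female CD45.1 recipients, from which labelled donor HSCs (CD45.2+ CD48- CD150+) were sorted. Kdr shRNA cells (4 libraries, GFP+) had their own scramble control (2 libraries), and cells with both Kdr and Bmpr1a shRNAs (4 libraries, GFP+ mCherry+) had a double scramble control (2 libraries). Bmpr1a hairpin 1 was used in replicates 1 and 2 of the double knockdown and hairpin 2 in replicates 3 and 4. ATAC-seq was available for 4 OCR and 2 OCRRF libraries, H3K4me3 and H3K27me3 signal for 2 OCR libraries each, and PU.1 peaks for 2 libraries each of OAL, OCR and OCRRF. For ATAC-seq and histone marks, OAL was not analysed here.

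Cells build cholesterol and fatty acids from the same small precursor, acetyl-CoA. ATP citrate lyase releases it in the cytosol. One branch, the mevalonate pathway, leads through squalene to cholesterol, and the other leads through malonyl-CoA to palmitate, which is then elongated and desaturated. When membrane sterol falls, the SREBP transcription factors leave the endoplasmic reticulum and switch on most genes of both branches, while INSIG proteins hold them back when sterol is plentiful. In blood stem cells these lipids are used for new membranes and signalling.

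By role, the list runs from cholesterol synthesis through its control to fatty acids. Hmgcs1 (ENSMUSG00000093930, chr13:119690379-119708260, + strand, mm10) encodes the cytosolic HMG-CoA synthase of the mevalonate pathway. Fdft1 (ENSMUSG00000021273, chr14:63145150-63179578, - strand) encodes squalene synthase, the first step committed to sterols. Sqle (ENSMUSG00000022351, chr15:59315077-59331192, + strand) encodes squalene epoxidase, which acts next. Insig1 (ENSMUSG00000045294, chr5:28071363-28078662, + strand) encodes the SREBP-retaining regulator and is itself a classic SREBP target. Acly (ENSMUSG00000020917, chr11:100476353-100528000, - strand) encodes ATP citrate lyase. Acaca (ENSMUSG00000020532, chr11:84129672-84401651, + strand) encodes acetyl-CoA carboxylase 1, which makes malonyl-CoA. Fasn (ENSMUSG00000025153, chr11:120805846-120824547, - strand) encodes fatty acid synthase. Scd2 (ENSMUSG00000025203, chr19:44293674-44306864, + strand) encodes a stearoyl-CoA desaturase, which puts the first double bond into saturated fatty acids. An exon of Hmgcs1 overlaps the antisense gene Gm48342 over 557 bases, and Fdft1 overlaps Ctsb on the opposite strand over 774 bases. The use of strand in counting is not given in the sources used here, so reads in these stretches cannot be told apart, and the same holds for reads that Scd2 shares with its paralogs Scd1, Scd3 and Scd4.

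Promoter sequence, from RefSeq on GRCm38.p6, was at hand for 5 of the 8 genes (Hmgcs1, Insig1, Acly, Acaca and Fasn). The 4 stretches below end at the base before the annotated start and are shown because these promoters are the ones read by ATAC-seq further on. Capitals mark, on either strand, a sterol regulatory element (TCACNCCAC, a site type bound by SREBPs), an E-box (CACGTG, which SREBP1 can also bind), CCAAT boxes and GC boxes (GGGCGG), the last 2 being common partner sites.
Hmgcs1, chr13:119690201-119690350, + strand: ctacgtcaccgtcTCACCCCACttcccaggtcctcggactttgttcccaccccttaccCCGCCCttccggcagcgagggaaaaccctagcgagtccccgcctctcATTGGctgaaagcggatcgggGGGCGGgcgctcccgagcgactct
Insig1, chr5:28071262-28071411, + strand: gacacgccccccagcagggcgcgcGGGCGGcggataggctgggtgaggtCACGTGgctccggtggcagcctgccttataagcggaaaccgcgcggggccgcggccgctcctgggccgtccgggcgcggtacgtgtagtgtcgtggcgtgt
Acly, chr11:100528001-100528150, - strand: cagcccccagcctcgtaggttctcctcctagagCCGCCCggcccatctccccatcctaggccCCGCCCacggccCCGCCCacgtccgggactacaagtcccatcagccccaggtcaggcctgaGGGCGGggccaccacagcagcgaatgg
Fasn, chr11:120824548-120824697, - strand: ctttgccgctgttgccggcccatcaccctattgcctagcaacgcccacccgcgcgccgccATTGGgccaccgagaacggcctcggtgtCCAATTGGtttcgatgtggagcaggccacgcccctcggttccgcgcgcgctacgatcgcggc

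Over the full window of 250 bases before to 50 after the start, the sterol element was found in Hmgcs1 only, as TCACCCCAC from -137 to -129 (-1 being the base before the start). Among all 32851 RefSeq promoter windows 1.24% held it. The E-box was found in Insig1 only, from -101 to -96, against 7.15% of all windows. CCAAT boxes were in 4 of the 5 windows (37.4% of all) and GC boxes in 3 of the 5 (35.7% of all). In Fasn a CCAAT box and its reverse, ATTGG, overlap in the run CCAATTGG. The Acaca window, at the RefSeq start chr11:84195438 inside the longer gene model, held none of the 4 motifs. That gene model begins at chr11:84129672, where no sequence was searched, so the window does not describe a promoter there. A match describes letters and is not evidence of binding. Only exact matches to the stated letters were counted, so the lack of a match is not evidence that a promoter has no such site.

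Library totals were 11102898 to 36579392 counts in the diet experiment and 35657999 to 44780217 in the knockdown experiment. Levels below are CPM, each library's counts scaled to a common total after TMM normalization. Stem cell markers summed to 3420 to 4880 CPM over 8 genes in the diet libraries, whereas Cd34, Flt3 and Cd48 summed to 118 to 254 CPM there. In the knockdown libraries Cd34, Flt3 and Cd48 summed to 399 to 925 CPM, and Cd34 alone had 358 to 807. CD34 and Flk2 (Flt3) were gated out in the diet sort only, and CD48 in the knockdown sort only. Granulocyte and monocyte markers (7 genes) summed to 16.3 to 85.3 CPM in OAL, OCR and OCRRF but reached 1090 CPM in YCRRF and 2260 CPM in double scramble. In bulk RNA, fewer cells of a type and less RNA per cell cannot be told apart.

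All 8 genes were measured in every library. Per kilobase of exon, the OCR levels were highest for Scd2 at 83.9 ± 7.42 CPM per kb (SD, n = 4) and Acly at 50.8 ± 4.42, and lowest for Acaca at 2.17 ± 0.198. Between them stood Insig1 at 20.5 ± 1.85, Fasn at 16.2 ± 1.83, Sqle at 12.9 ± 1.23, Hmgcs1 at 10.8 ± 1.21 and Fdft1 at 9.30 ± 0.491. Neighbours in this order were further apart than their SDs except Sqle with Hmgcs1 and Hmgcs1 with Fdft1. In OAL the first place went to Acly, at 45.6 ± 3.01 CPM per kb, with Scd2 second at 41.5 ± 9.61 and overlapping it. The same 2 genes led in OCRRF, YAL and scramble, again with overlapping SDs.

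**Figure D1:**
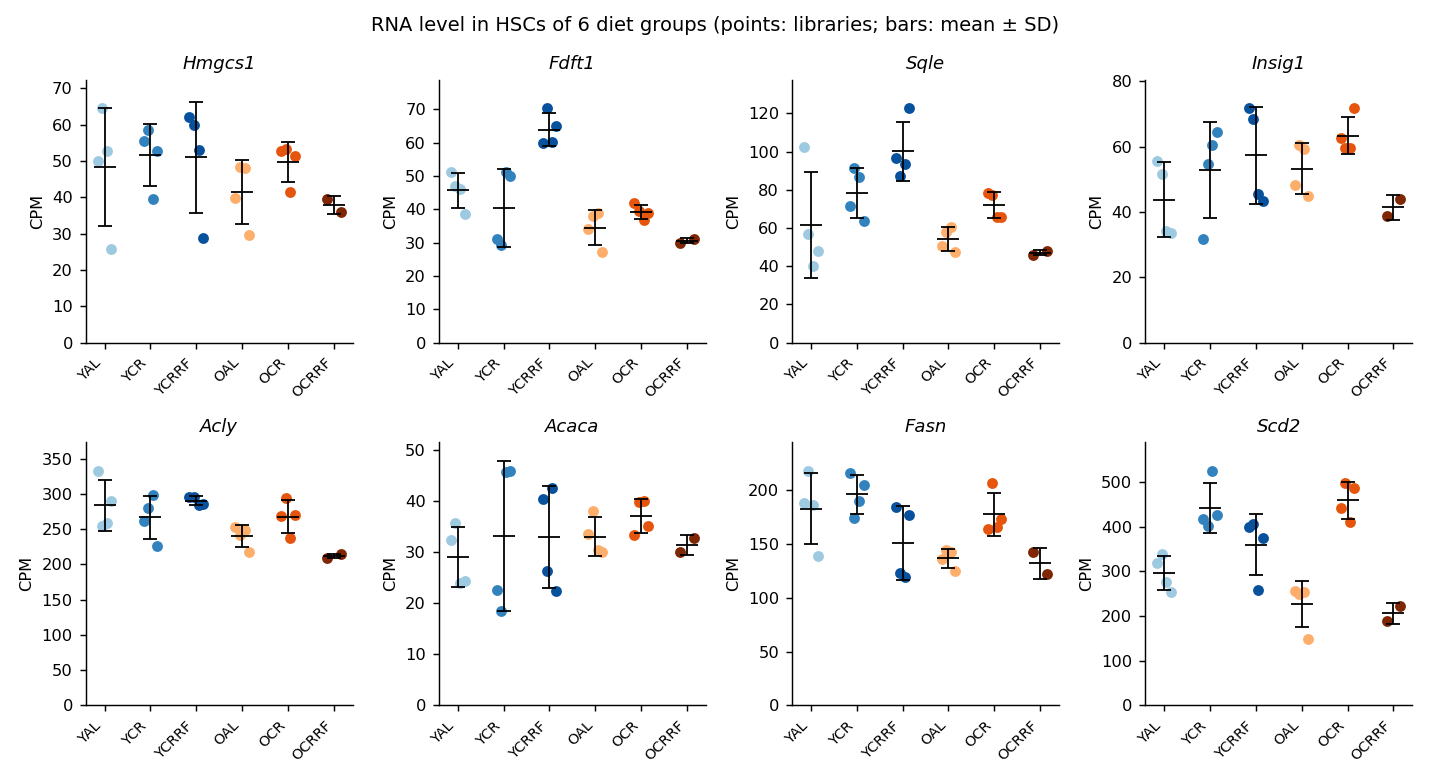
RNA level (CPM, linear axis) of each of the 8 genes in every diet library; points are libraries and bars the group mean ± SD (n = 4, OCRRF n = 2). Scd2 stood between 409.8 and 497.5 CPM in OCR against 148.1 to 256.8 in OAL and 189.2 and 222.0 in OCRRF.

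The first question was how old HSCs under lifelong restriction differed from those of freely fed mice in these genes. All 8 had higher means in OCR than in OAL, and 3 of the 8 passed the threshold of the whole-table test (edgeR quasi-likelihood, Benjamini-Hochberg adjusted p under 0.05 and fold change over 1.2), which 5.57% of the 27150 genes tested passed (2.54% on the higher side). The median log2 difference over the 8 was 0.28, against 0.02 over all genes tested. All 8 kept their sign in each of 14 alternative settings. With TMM factors from genes of at least 5 CPM the calls over all genes went from 689 higher and 822 lower to 894 and 698.

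Scd2 had the widest difference. In OAL its 4 libraries had 256.8, 249.0, 252.9 and 148.1 CPM, and in OCR 441.1, 497.5, 409.8 and 485.7 CPM. The groups did not overlap, and the lowest OCR library stood well above the highest OAL library, even though OAL replicate 4 lay far below its group. The fitted difference was 1.03 ± 0.12 (SE) on the log2 scale, a fold of 2.05, and 0.88 without OAL replicate 4.

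Fasn and Sqle, the palmitate and squalene epoxide steps, also passed. For Fasn the OAL libraries had 136.0, 144.7, 142.5 and 124.7 CPM and the OCR libraries 164.1, 207.1, 165.9 and 173.7 CPM, a log2 difference of 0.39 ± 0.09. For Sqle the OAL libraries had 50.36, 57.94, 60.79 and 47.33 CPM and the OCR libraries 78.33, 77.04, 65.91 and 65.99 CPM, a log2 difference of 0.43 ± 0.09. Neither pair of groups overlapped. Together with Scd2 these were the 3 members whose OCR libraries all lay above OAL, a pattern seen in 6.34% of the 12327 genes that averaged at least 5 CPM.

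The other 5 had overlapping groups and did not pass. Hmgcs1 had 39.87, 48.34, 48.18 and 29.66 CPM in OAL and 52.81, 53.33, 41.5 and 51.45 in OCR, a log2 difference of 0.28 ± 0.12. Insig1 had 48.35, 60.47, 59.16 and 44.77 CPM in OAL and 62.47, 59.68, 59.64 and 71.74 in OCR, a log2 difference of 0.27 ± 0.10. In Hmgcs1 the overlap came from OCR replicate 3, and in Insig1 from OAL replicate 2, which exceeded OCR replicates 2 and 3. Fdft1 (34.5 ± 5.32 CPM in OAL, 39.3 ± 2.07 in OCR; SD, n = 4), Acly (241 ± 15.9 and 268 ± 23.4) and Acaca (33.0 ± 3.72 and 37.0 ± 3.39) had log2 differences of 0.21 ± 0.11, 0.17 ± 0.08 and 0.18 ± 0.10. OAL replicate 4 was the lowest of its group in 8 of the 8 genes, and without it the differences of Hmgcs1 and Fdft1 were 0.15 and 0.11.

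**Figure D2:**
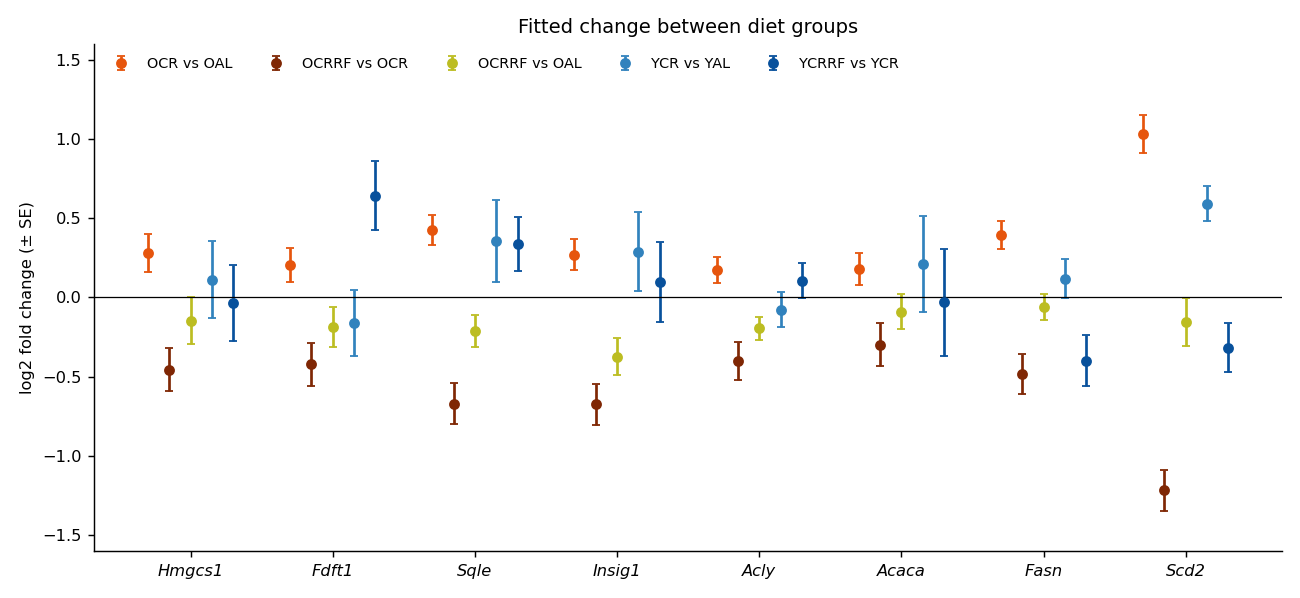
Log2 fold change ± SE of the 8 genes in 5 diet comparisons (edgeR). All 8 points lie above 0 for OCR against OAL and below 0 for OCRRF against OCR, with Scd2 the farthest from 0 in both, at 1.03 and -1.22.

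The rest of the pathway was taken from 60 other genes in 3 lists, of sterol enzymes (18), sterol control and transport (17) and fatty acid synthesis (25). In OCR against OAL 4 of the 18 sterol enzymes rose and none fell (22.2% called), 5 of the 17 control and transport genes rose and none fell (29.4%), and 2 of the 25 fatty acid genes rose and 1 fell (12%). These lists were drawn up with earlier results known, and their median log2 differences were 0.22, 0.17 and 0.01. Among the enzymes, Idi1 (isopentenyl diphosphate isomerase) had 12.21, 11.63, 13.25 and 7.178 CPM in OAL and 19.44, 20.78, 15.34 and 18.56 in OCR, and rose by 0.76 ± 0.15 log2 (edgeR quasi-likelihood, Benjamini-Hochberg adjusted p = 0.00148). Lss, Cyp51 and Msmo1, which close and demethylate the sterol ring, rose by 0.43 ± 0.10, 0.42 ± 0.11 and 0.44 ± 0.13 log2.

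Of the control genes, Srebf1, which encodes SREBP1, had 84.55, 85.53, 88.51 and 73.73 CPM in OAL and 112.7, 124.8, 108.1 and 101.9 in OCR, and rose by 0.45 ± 0.09 log2 (edgeR adjusted p = 0.000917), whereas Srebf2, which encodes the factor most tied to cholesterol genes, did not pass at 0.17 ± 0.07 (edgeR adjusted p = 0.262). The list's name covers opposite roles. Abca1 and Abcg1, which export cholesterol and are classic targets of the liver X receptors, rose by 0.97 ± 0.13 and 0.72 ± 0.11, and Mylip, a ubiquitin ligase that is also such a target, rose by 0.42 ± 0.11. So genes of sterol synthesis and of sterol export were both among those that rose. In the fatty acid list Elovl5, an elongase, rose by 0.38 ± 0.09, Acsl3, an acyl-CoA synthetase, rose by 0.37 ± 0.09, and Fads3, of the fatty acid desaturase family, fell by 0.45 ± 0.10 log2. Scd1, a paralog of Scd2, did not pass at 0.41 ± 0.17 (edgeR adjusted p = 0.193). Of these 12, 6 (Abca1, Abcg1, Fads3, Idi1 and Srebf1 among them) were called in all 14 alternative settings.

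**Figure D3:**
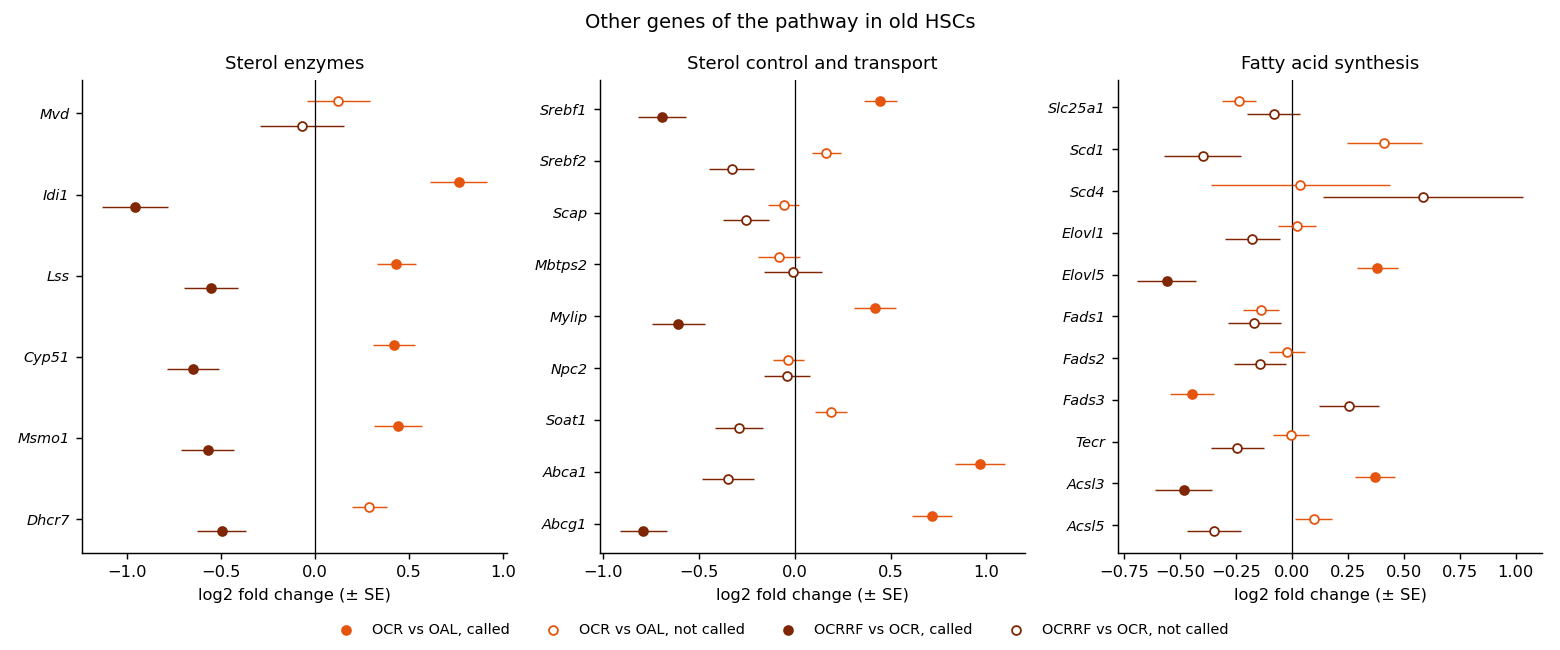
Log2 fold change of the other pathway genes in 3 lists (± SE) for OCR against OAL and OCRRF against OCR, drawn for the genes of these lists that the text names; filled points passed the test. Idi1 stood at 0.76 and -0.96, and Fads3 was the gene called lower in OCR.

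Markers of dividing cells moved with these genes. The summed level of 7 proliferation genes (Mki67, Top2a, Ccna2, Ccnb2, Cdk1, Mcm5 and Pcna) was 291 to 311 CPM in OAL, 619 to 864 in OCR and 257 to 285 in OCRRF. All 7 rose in OCR against OAL and all 7 fell in OCRRF against OCR (edgeR). The 8 stem cell markers summed to 3890 to 4470 CPM in OAL, 3430 to 4050 in OCR and 3420 to 3480 in OCRRF, with 3 of the 8 called lower in OCR against OAL. Erythroid markers (6 genes) summed to 42.5 to 233 CPM in OAL and 41.9 to 82.4 in OCR, with 4 called lower and 1 higher. The summed counts of 1971 olfactory and vomeronasal receptor genes, a family of sensory neurons, were 548 to 765 CPM in OAL, 580 to 1186 in OCR, and 1093 and 1397 in OCRRF. The part of these differences in the lipid genes' levels was not tested.

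The refed old group addressed whether levels under restriction persisted once food was free. OCRRF was compared with OCR, which is also the restricted arm above, so the comparisons share 4 libraries. All 8 genes had both OCRRF libraries below all 4 OCR libraries, a pattern found in 25.5% of the 12327 genes with at least 5 CPM (9.05% had the opposite one). Of the 8, 4 passed lower (Scd2, Insig1, Sqle and Fasn), where 3.41% of 32577 genes tested passed in either direction and 2.71% passed lower. The median log2 difference was -0.47, against 0.11 over all genes tested and -0.14 over genes with at least 5 CPM. Where TMM factors were set from genes with at least 5 CPM, the median over all genes tested moved to 0.24, the calls went from 226 higher and 884 lower to 341 and 573, and all 8 lipid genes stayed below 0 with the same 4 passing.

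Scd2 again led. Its OCRRF libraries had 189.2 and 222.0 CPM, between OAL replicate 4 and the other OAL libraries, and the log2 difference from OCR was -1.22 ± 0.13. Insig1 had 38.71 and 44.07 CPM in OCRRF, below the lowest OCR library at 59.64, with a log2 difference of -0.68 ± 0.13. Sqle had 46.13 and 48.01 CPM, against 65.91 for the lowest OCR library, with a log2 difference of -0.67 ± 0.13. Fasn had 142.4 and 122.1 CPM, against 164.1 for the lowest OCR library, with a log2 difference of -0.48 ± 0.13. The 4 that did not pass were Hmgcs1 at 39.58 and 36.07 CPM (log2 difference -0.46 ± 0.14), Fdft1 at 30.0 and 31.13 (-0.42 ± 0.13), Acly at 209.5 and 214.3 (-0.40 ± 0.12) and Acaca at 29.91 and 32.77 (-0.30 ± 0.14). The nearest OCR libraries stood close to these, at 41.5 CPM for Hmgcs1 and 33.31 CPM for Acaca. With only 2 refed libraries the count of members that passed was 1 without OCRRF replicate 1 and 7 without OCR replicate 3 or replicate 4.

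In the other pathway genes, refeeding was followed by 12 falls and no rise among 60. Of the 18 sterol enzymes 6 fell (33.3%). Idi1 fell by 0.96 ± 0.18 log2 (edgeR adjusted p = 0.000444) to 10.17 and 9.687 CPM, Cyp51 by 0.65 ± 0.14, Msmo1 by 0.57 ± 0.14, Lss by 0.55 ± 0.14 and Dhcr7 by 0.50 ± 0.13. Of the 17 control and transport genes 4 fell (23.5%), with Abcg1 down by 0.79 ± 0.12, Srebf1 by 0.69 ± 0.12 and Mylip by 0.61 ± 0.14. Elovl5 and Acsl3 were the 2 of 25 in the fatty acid list (8%), which fell by 0.56 ± 0.13 and 0.48 ± 0.13. Srebf2 and Scd1 did not pass, at -0.33 ± 0.12 and -0.40 ± 0.17 log2. Abca1, at 68.22 and 64.82 CPM in OCRRF, was higher there than in OAL (log2 0.65 ± 0.15, edgeR adjusted p = 0.0298), a call made in 6 of 12 alternatives. Of the 12 falls, 3 (Abcg1 and Idi1 among them) were called in all 12 alternative settings. Without OCRRF replicate 1 the count was 4 and without OCRRF replicate 2 it was 5.

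The refed libraries were also set against OAL. None of the 8 passed (edgeR), while 4.14% of 31816 genes did, 3 had an unadjusted p under 0.05 and DESeq2 called 1. That share fell when a library was left out. Over all genes, 528 were called higher and 788 lower, but 23 and 15 without OCRRF replicate 1, 15 and 47 without OCRRF replicate 2, and 50 and 51 without OAL replicate 2. Leaving out each of the other OAL libraries gave 53 to 232 higher and 118 to 197 lower. Both OCRRF libraries lay below all OAL libraries for Insig1 and Acly, a pattern seen in 37.6% of the genes with at least 5 CPM. The log2 differences ran from -0.38 ± 0.12 for Insig1 to -0.06 ± 0.08 for Fasn. With the TMM factors from genes with at least 5 CPM the signs of Acaca (0.06) and Fasn (0.08) turned positive, and the calls over all genes went from 528 higher and 788 lower to 754 and 54, so a direction for these genes is not given. Among the other 60, Scap, the SREBP escort, Slc25a1, the mitochondrial citrate carrier, and Fads1, a desaturase, fell by 0.29 ± 0.08, 0.29 ± 0.07 and 0.28 ± 0.07 log2, and Abca1 rose. Under that scaling 1 of these 4, Abca1, was called.

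Short restriction in young mice gave fewer calls than lifelong restriction in old mice. Young replicates also differed more. The variance between 2 replicates was 26.0 to 64.9 times that of counting alone in YAL and 27.1 to 63.5 in YCR. In OAL it was 10.0 to 16.6 and in OCR 14.8 to 25.6, so the number of calls is not read as the size of the response. None of the 8 passed in YCR against YAL (edgeR), where 0.364% of 18680 genes passed, 1 of the 8 had an unadjusted p under 0.05 and DESeq2 called 1. That gene was Scd2. Its libraries had 318.1, 338.0, 275.8 and 254.1 CPM in YAL and 416.2, 401.9, 525.3 and 425.6 in YCR, so every restricted library lay above every freely fed one (2.69% of genes with at least 5 CPM did so). The log2 difference was 0.59 ± 0.11, a fold of 1.51, and it passed in 4 of 14 alternative settings. Sqle had 102.2, 56.66, 40.3 and 48.12 CPM in YAL and 71.53, 91.28, 86.95 and 63.57 in YCR. The YAL replicate 1 value lay above every YCR value, and the log2 difference was 0.36 ± 0.26, or 0.71 without that library. Acaca had 22.53, 18.4, 45.6 and 45.9 CPM in YCR, with replicates 3 and 4 at about the same level and replicates 1 and 2 far lower, around a YAL range of 23.94 to 35.56 CPM. The log2 differences of Hmgcs1, Fdft1, Insig1, Acly and Fasn were between -0.16 and 0.29. Of the other pathway genes only Abcg1 was called, higher by 0.68 ± 0.10 (edgeR adjusted p = 0.0270), and it was called in 5 of 14 alternatives. The median log2 difference was -0.15 over the sterol enzymes, with 6 of 18 above 0. It was 0.09 over control and transport (10 of 16 tested above 0) and -0.10 over fatty acid synthesis (9 of 22 tested). Srebf1 (0.29 ± 0.12), Srebf2 (-0.27 ± 0.10) and Scd1 (0.81 ± 0.32) did not pass. The proliferation genes summed to 437 to 511 CPM in YAL and 608 to 676 in YCR, with Top2a alone of the 7 called.

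A term for age by diet asked whether old and young responses differed. None of the 8 passed (edgeR, 0.0318% of 28328 genes did, 1 of the 8 had an unadjusted p under 0.05 and DESeq2 called 0). For Scd2 the old response minus the young one was 0.44 ± 0.20 log2, for Fdft1 0.37 ± 0.24, and for Insig1 -0.02 ± 0.28. Of the other 60 pathway genes none passed (edgeR, 8 with an unadjusted p under 0.05, DESeq2 called 2). The median of old minus young was 0.33 log2 over the sterol enzymes, with 16 of 18 above 0. It was 0.06 over control and transport (12 of 17 above 0) and 0.06 over fatty acid synthesis (14 of 25). The arms differ in duration as well as age, lifelong against 4 weeks, and these cannot be told apart.

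After refeeding of young mice the order of the groups was not that of the old mice. None of the 8 passed in YCRRF against YCR (edgeR, 0.0102% of 19535 genes did, 2 of the 8 had an unadjusted p under 0.05, DESeq2 called 0). Fdft1 had 59.84, 70.46, 60.27 and 64.98 CPM in YCRRF, above every library of YCR (29.4 to 51.22 CPM) and of YAL (38.52 to 51.1 CPM). Separation of this kind was seen in 3.95% and 1.3% of genes with at least 5 CPM. Its log2 differences were 0.64 ± 0.22 and 0.49 ± 0.15. Scd2 had 398.0, 406.9, 258.5 and 374.9 CPM, which overlapped both other young groups, with a log2 difference of -0.32 ± 0.15 from YCR. Fasn was at 184.5, 123.6, 119.0 and 176.9 CPM, with a log2 difference of -0.40 ± 0.16 from YCR. Against YAL none of the 8 passed either (edgeR, 2 with an unadjusted p under 0.05, DESeq2 0, 0.0% of 19334 genes). In the other 60 pathway genes none passed in YCRRF against YCR or YAL (edgeR, 5 and 2 with an unadjusted p under 0.05, DESeq2 called 0 in each). YCRRF replicate 4 was the shallowest diet library, at 11102898 counts, and the granulocyte and monocyte markers of YCRRF summed to 155 to 1090 CPM, against 23.1 to 268 in YCR and 20.9 to 415 in YAL. The part of these was not tested.

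Age itself was compared in freely fed mice. Of the 8, 1 gene, Fasn, was past the threshold and lower in OAL (14.8% of 23525 genes were past it, 7.93% on the lower side), with YAL libraries at 188.5, 218.5, 186.3 and 139.2 CPM against 136.0, 144.7, 142.5 and 124.7 in OAL. YAL replicate 4 overlapped the old libraries, and the log2 difference of -0.41 ± 0.12 was no longer past the threshold without YAL replicate 1, YAL replicate 2 or any one OAL library, nor with the TMM factors from genes with at least 5 CPM (-0.29), where the calls of all genes went from 1620 higher and 1866 lower to 1872 and 784. Acly was the member with every OAL library below every YAL library (22.1% of genes with at least 5 CPM), at 217.6 to 252.8 CPM against 254.0 to 333.2, with a log2 difference of -0.23 ± 0.09. Of the other 60 pathway genes 4 rose and 7 fell (5.56%, 23.5% and 24% of the 3 lists, beside the 14.8% of all genes), and the count was 4 without any one OAL library. Scd1 rose by 1.43 ± 0.28 log2 (edgeR adjusted p = 0.00848), from 3.386 to 5.103 CPM in YAL to 6.296 to 14.22 in OAL, while Scd2 had a log2 difference of -0.37 ± 0.16. Srebf2 fell by 0.41 log2 (edgeR adjusted p = 0.00831), and Acsl5, an acyl-CoA synthetase, fell by 0.38 (edgeR adjusted p = 0.00614). Those 3 were called in all 14 alternatives. Mvd, the last mevalonate decarboxylation enzyme, fell by 0.90 ± 0.21 log2, Npc2, a lysosomal cholesterol carrier, by 0.29 ± 0.08, Slc25a1 by 0.30 ± 0.09, Elovl1 by 0.35 ± 0.08 and Tecr by 0.27 ± 0.07, of which Slc25a1 and Tecr were called in 3 of 14 alternatives and Npc2 in 4 of 14. Mbtps2, a protease that releases SREBPs, rose by 0.87 ± 0.24 log2, Soat1, which esterifies cholesterol, by 0.62 ± 0.16, and Scd4 by 3.58 ± 1.10, the last called in 5 of 13 alternatives. Low-level counts differed between the ages. The 1971 olfactory and vomeronasal receptor genes summed to 120 to 240 CPM in YAL and 548 to 765 in OAL. YAL libraries held counts in 25936 to 28713 genes and OAL libraries in 42071 to 43972. The part of this in the rises of genes with low counts was not tested. Marker lists differed between the ages too. The proliferation genes summed to 437 to 511 CPM in YAL and 291 to 311 in OAL (4 of 7 called lower). B cell markers summed to 65.4 to 119 and 40.8 to 46.8 (4 of 6 lower). Cd34, Flt3 and Cd48 summed to 173 to 223 and 129 to 160 (3 of 3 lower). Granulocyte and monocyte markers summed to 20.9 to 415 and 16.3 to 68.1 (2 of 7 lower). Adipocyte and stromal markers went the other way, at 0.416 to 4.17 CPM in YAL and 5.04 to 6.83 in OAL (1 of 5 tested called higher). Erythroid markers summed to 29.0 to 97.9 and 42.5 to 233 (1 of 6 higher, 1 lower). Stem cell markers summed to 4150 to 4500 and 3890 to 4470 (1 of 8 lower). The part of these lists in the lipid genes' levels was not tested.

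Correlations among the 8 genes are given for old and young libraries apart. Over the 10 old diet libraries the 28 pairs had Pearson correlations of log2 CPM from 0.485 to 0.946 (median 0.815). Over the 12 young libraries they ran from -0.388 to 0.548 (median 0.188). These describe points that share diet group, depth and sort, and carry no test. With the age means removed, the genes most like Scd2 over all 22 diet libraries, of 12327, were 1810014B01Rik (r = 0.914), Hsp90b1 (0.902) and Wee1 (0.901). Fdft1 was most like the sterol enzyme Msmo1 (0.855), with Gcat (0.786) the third in order, and Insig1 was most like Ctps (0.815), Msmo1 (0.805) and Suds3 (0.774). Fasn was most like Rnf157 (0.863), Nrm (0.861) and Dtl (0.861), and Sqle like Bcat2 (0.857), Zfp771 (0.780) and Zfand2b (0.755). Acly was most like Gm14820 (0.838), Suv39h1 (0.772) and Ppp2r3c (0.757), and Acaca like Mrps10 (0.777), Gm29054 (0.772) and Nedd4l (0.767). For Hmgcs1 the leading gene was its overlapping antisense neighbour Gm48342 (0.852), which can share its reads, followed by Rrbp1 (0.815) and Arpp19 (0.810).

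The knockdown experiment asked what the loss of Kdr, which encodes VEGFR2, and of Bmpr1a, a BMP receptor, did to transplanted HSCs. The targeted genes were checked first. Kdr stood at 6.08 and 6.11 CPM in scramble and at 1.92, 2.18, 3.28 and 2.05 in Kdr shRNA libraries, and at 3.95 and 4.64 in double scramble against 1.23, 0.557, 1.61 and 1.34 in the double knockdown (CPM of counted reads, without TMM factors). Bmpr1a stood at 5.18 and 4.44 in double scramble and at 4.43, 0.658, 2.23 and 0.59 in the double knockdown, so the library labelled double knockdown replicate 1 was level in Bmpr1a with double scramble replicate 2.

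**Figure D4:**
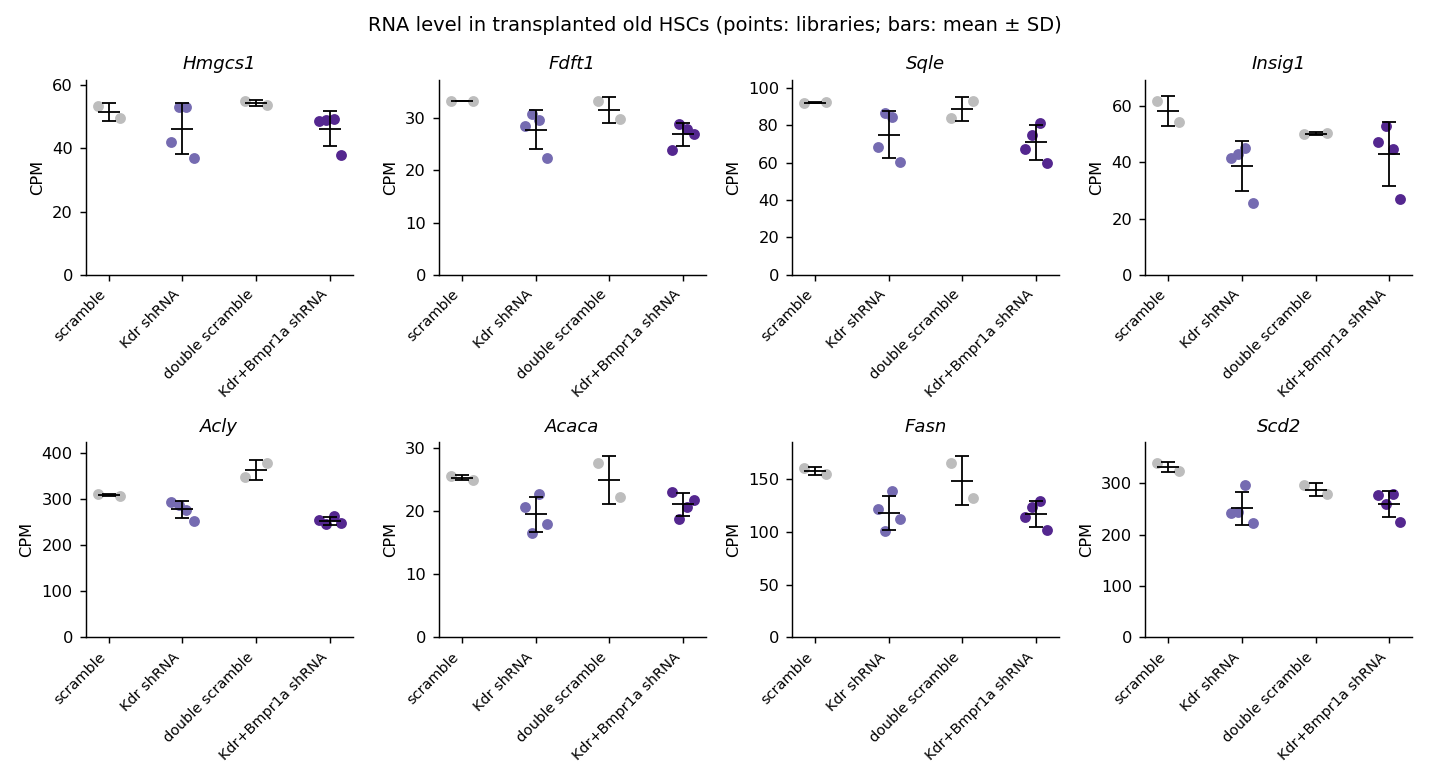
RNA level (CPM, linear axis) of the 8 genes in scramble (n = 2), Kdr shRNA (n = 4), double scramble (n = 2) and Kdr with Bmpr1a shRNA (n = 4) libraries; points are libraries and bars mean ± SD. Knockdown means were below their own scramble for all 8 genes in both experiments.

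With Kdr knocked down, all 8 genes had a lower mean than in scramble and none passed (edgeR, 0.0149% of 20098 genes passed, 4 of the 8 had an unadjusted p under 0.05, DESeq2 called 2). For 7 of the 8, all but Hmgcs1, the 4 knockdown libraries lay below both scramble libraries, as 11.5% of genes with at least 5 CPM did (14.7% lay above). Insig1 had 61.99 and 54.48 CPM in scramble and 41.43, 42.84, 44.98 and 25.38 with the shRNA, a log2 difference of -0.59 ± 0.20. Fasn had 160.9 and 155.4 CPM against 121.5, 101.0, 139.1 and 112.2, a log2 difference of -0.42 ± 0.12. Scd2 had 338.9 and 324.5 CPM against 243.0, 243.8, 296.6 and 222.1, a log2 difference of -0.40 ± 0.11. Kdr shRNA replicate 4 was the lowest of its group in 6 of the 8 genes. Acaca (-0.38 ± 0.14), Sqle (-0.30 ± 0.14), Fdft1 (-0.26 ± 0.14), Hmgcs1 (-0.16 ± 0.15) and Acly (-0.15 ± 0.08) made up the rest. The median was -0.34, against -0.00 over all genes tested. The 8 stem cell markers summed to 3250 to 3440 CPM in scramble and 2680 to 3070 with the shRNA. Cd34, Flt3 and Cd48 summed to 399 to 475 and 493 to 589, without overlap in either case. Of these 3, only CD48 was gated out in this sort. The 7 proliferation genes summed to 887 to 999 CPM in scramble and 1010 to 1210 with the shRNA, and granulocyte and monocyte markers to 179 to 892 and 403 to 1920. B cell markers (6 genes) summed to 33.3 to 39.9 CPM in scramble and 41.1 to 59.9 with the shRNA, without overlap and with 0 called. Erythroid markers and adipocyte and stromal markers overlapped between the groups. The part of these in the lipid genes' levels was not tested.

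In the double knockdown the 8 genes again had lower means than their own scramble, and none passed (edgeR, 0.00498% of 20072 genes passed, 3 of the 8 had an unadjusted p under 0.05, DESeq2 called 1). Here Acly was farthest from scramble. It had 346.8 and 377.5 CPM in double scramble and 255.6, 245.2, 263.6 and 247.3 in the double knockdown, a log2 difference of -0.52 ± 0.06. The 4 knockdown libraries, of either Bmpr1a hairpin, lay within a narrow range far below both controls. Fasn had 165.3 and 132.3 CPM against 114.5, 123.9, 129.6 and 101.7, a log2 difference of -0.34 ± 0.12. Sqle had 84.16 and 93.2 CPM against 67.2, 74.95, 81.34 and 60.04, a log2 difference of -0.32 ± 0.12. Scd2 stood at 297.3 and 278.6 CPM against 276.3, 259.9, 278.6 and 224.7, where the third knockdown library came level with the lower control to 4 digits (log2 difference -0.15 ± 0.09). Hmgcs1 (-0.24 ± 0.12), Acaca (-0.24 ± 0.13), Fdft1 (-0.23 ± 0.11) and Insig1 (-0.22 ± 0.23) were between. Of the 8, 6 lay wholly below scramble (all but Insig1 and Acaca), as did 10.9% of genes with at least 5 CPM (13.5% lay above). Scd2 is counted among the 6 only by log2 CPM of 8.1222 in double knockdown replicate 3 against 8.1225 in double scramble replicate 2. The granulocyte and monocyte markers summed to 1350 to 2260 CPM in double scramble and 248 to 1530 in the double knockdown. Adipocyte and stromal markers (7 genes) summed to 11.6 to 12.7 and 1.26 to 4.61 CPM, without overlap and with 0 called. Cd34, Flt3 and Cd48 summed to 496 to 541 and 592 to 925. B cell markers summed to 33.8 to 43.4 and 46.6 to 59.6. Stem cell, erythroid and proliferation markers overlapped between the groups. The part of these in the lipid genes' levels was not tested.

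Whether the second shRNA changed the response was tested on the difference of the 2 knockdown effects. None of the 8 passed and none of all 21250 genes did (edgeR, 1 of the 8 had an unadjusted p under 0.05, DESeq2 called 0). For Acly the double effect minus the single effect was -0.37 ± 0.09 log2, and for Insig1 it was 0.37. The single and double experiments used different controls and sort gates. Of the other 60 pathway genes none passed in either knockdown (10 and 16 had an unadjusted p under 0.05 in edgeR, and DESeq2 called 3 and 6). Srebf1 had log2 differences of -0.07 ± 0.12 and -0.15 ± 0.06. Fads2, a desaturase of long-chain fatty acids, had 141.6 and 155.0 CPM in scramble and 116.0 to 120.2 with Kdr shRNA (log2 -0.33 ± 0.07, edgeR adjusted p = 0.260), and 134.0 and 130.3 CPM in double scramble and 76.32 to 101.1 in the double knockdown (log2 -0.60 ± 0.11, edgeR adjusted p = 0.243).

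Chromatin was read at the same genes where libraries allowed. ATAC-seq peaks within 1 kb of an annotated protein-coding start were found for 7 of the 8 genes (8 peaks, 2 at Fasn). None was found for Acaca at the 2 starts used, which does not show that Acaca lacks an open promoter. A peak lay 6679 bases downstream of 1 of them (chr11:84179117-84180485, log2 OCRRF minus OCR -0.15 ± 0.08). In OCR the Hmgcs1 peak was higher than 99.4% of 17576 promoter peaks, the Insig1 peak higher than 96.7%, Sqle 94.4%, Fdft1 81.3%, Acly 79.6%, Scd2 78.6% and Fasn 74.0%. The sequences of Hmgcs1, Insig1, Acly and Fasn printed above lie at these open promoters.

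**Figure D5:**
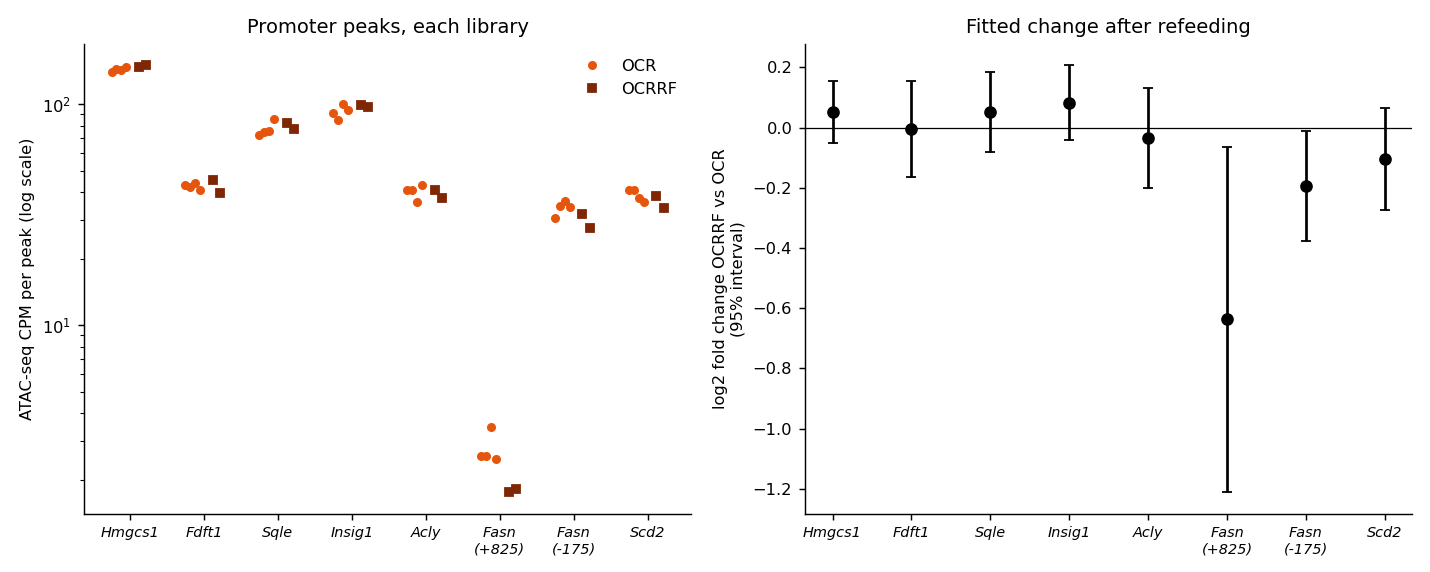
ATAC-seq signal at 8 promoter peaks of 7 genes in OCR (n = 4) and OCRRF (n = 2) libraries (CPM, log axis), and the log2 fold change OCRRF minus OCR with its 95% interval. The intervals lie around 0 except for the Fasn peaks, at -0.19 and -0.64.

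None of the 8 promoter peaks was called between OCRRF and OCR (edgeR, adjusted p under 0.05, fold over 1.5 and mean log2 CPM over 1.5, passed by 0.221% of 123372 peaks; 2 of the 8 had an unadjusted p under 0.05, DESeq2 called 0). At Hmgcs1 the OCR libraries had 140, 145, 143 and 147 CPM and the OCRRF libraries 148 and 150, a log2 difference of 0.05 (95% interval -0.05 to 0.15). At Scd2, whose RNA was 2.33-fold lower after refeeding, the peak had 40.9, 41, 37.6 and 36.1 CPM in OCR and 38.5 and 33.8 in OCRRF, a log2 difference of -0.10 (95% interval -0.27 to 0.07). At Insig1 the interval of the difference ran from -0.04 to 0.21. The log2 differences of the same genes' RNA were -1.22 for Scd2 and -0.68 for Insig1. ATAC-seq and RNA came from separate libraries and their folds are not on one scale, so a link between them was not tested. The main Fasn peak had 30.6, 34.5, 36.6 and 34.4 CPM in OCR and 31.8 and 27.6 in OCRRF (log2 -0.19 ± 0.09, edgeR adjusted p = 0.388). A small second Fasn peak, centred 825 bases into the gene, had 2.56, 2.57, 3.46 and 2.48 CPM against 1.75 and 1.81 (log2 -0.64 ± 0.29, edgeR adjusted p = 0.362). Within 25 kb of a start, 33 peaks were tested and 0 were called. The lowest adjusted p among them belonged to a peak centred at -9288 from the Scd2 start (chr19:44283889-44284884, log2 -0.38 ± 0.09, edgeR adjusted p = 0.0286), whose fold was under 1.5. No pathway-list promoter peak of 66 tested was called.

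Histone marks were analysed in OCR only. H3K4me3, a mark of active promoters, had a mean signal per base of 34.8 and 37.7 at Hmgcs1 in the 2 libraries, 39.2 and 33.2 at Insig1, and 38.1 and 32.6 at Scd2. The median of all 31552 promoters was 10.2 and 9.64, and 7 of the 8 genes lay above it. Acaca was the exception at 0.123 and 0.314. Both of its marks were read only at the RefSeq start chr11:84195438, inside a gene model that begins at chr11:84129672. Signal at that earlier start was not read, so these values do not describe a promoter there. Fdft1 had 18.9 and 16.2 at one annotated start and 0.785 and 0.608 at another. H3K27me3, a mark of Polycomb repression, was between 0.04 and 0.406 at all 8, with medians of 0.183 and 0.162 against 0.312 and 0.316 for all promoters. No PU.1 peak lay within 25 kb of any of the 8 starts in any of the 6 libraries, which held 2262 to 5464 peaks each. In the same libraries 9.51% to 20.5% of 21875 genes had a PU.1 peak within that distance.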

How the data were processed

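RNA reads were trimmed (trim galore, cutadapt) and aligned to mm10 by STAR, and the authors deposited counts per GENCODE M22 gene from featureCounts for 22 diet and 12 knockdown libraries. Strand and multi-mapping settings are not given in the sources used here. The authors deposited ATAC-seq counts in consensus peaks (BWA, MACS), and histone coverage as signal per promoter, scaled by a rule not stated. The deposited PU.1 peak lists give a fold enrichment ratio, a display score and −log10 p and q per peak. The deposited enrichment ratio, score and −log10 values were read, and only peak positions were used for the results.

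Each comparison was fitted in edgeR 4.0.16 (R 4.3.3) on its own groups, with TMM, filterByExpr, glmQLFTest and Benjamini-Hochberg adjustment over all genes. Calls needed an adjusted p under 0.05 and a fold over 1.2 (ATAC-seq, over 1.5). CPM used TMM effective library sizes. Age by diet and double by single knockdown were interaction terms. Gene models came from GENCODE vM21. Alternatives were DESeq2 1.42.0, DESeq2 size factors, TMM factors from genes of at least 5 CPM, no filter, at least 10 counts in every library, a replicate block and leaving out each library. The members and lists were chosen with earlier results of these data known. The 8 members are all described. Of the other lists, Srebf1, Srebf2 and Scd1 could always be named, with those called in a comparison (at most 6 per list, by size of change), and Fads2 was named after its values were seen. Some genes of the lists are counted but not reported by name here. The genes most like each member are the 3 with the highest Pearson correlation of log2 CPM after removal of age means. Labels tie no replicate to a named animal or pool, so p-values measure the spread between these samples. ATAC-seq libraries held 15721335 to 19558148 counts in peaks.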

Additional observations from a re-analysis of the deposited data

Results flagged for a closer look

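In groups of 4, a library was marked where its gap to the nearest other library was a large part of the group's range (Dixon's test, 95% critical value). Of 64 groups tested 5 were marked, and chance marks about 1 in 20. Scd2 in OAL replicate 4 was at 148.1 CPM, against 249.0 to 256.8 in the other 3. Hmgcs1 in OCR replicate 3 was at 41.5 CPM (others 51.45 to 53.33). Hmgcs1 in double knockdown replicate 4 was at 38.0 CPM (others 48.78 to 49.13). Insig1 in Kdr shRNA replicate 4 was at 25.38 CPM (others 41.43 to 44.98). The ATAC-seq peak 825 bases into Fasn was at 3.46 CPM in OCR replicate 3 (others 2.48 to 2.57).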

How the results depend on the processing

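The signs of all 8 members held in every alternative for OCR against OAL, OCRRF against OCR and both knockdowns. The numbers of members called and of the 60 pathway genes called changed as follows. YCR against YAL had 0 members called and 1 with DESeq2, DESeq2 size factors, no filter or at least 10 counts, and 1 pathway gene, against 3 with DESeq2 or no filter. OCRRF against OCR had 4 members and 12 pathway genes, against 7 and 19 with DESeq2. OCRRF against OAL had 0 members, against 1 with DESeq2, size factors or no filter, and 4 pathway genes, against 10 with DESeq2, 9 with size factors and 1 with TMM from genes of at least 5 CPM or at least 10 counts. OAL against YAL had 1 member, against 0 with size factors, that TMM or at least 10 counts and 2 with no filter, and 11 pathway genes, against 7 with each of the first 3. With DESeq2 the Kdr knockdown had 2 members and 3 pathway genes, the double knockdown 1 (also with no filter) and 6, and the age by diet term 2 pathway genes, against 0 in edgeR. Leaving out each library gave 3 to 4 members and 8 to 14 pathway genes for OCR against OAL, 0 pathway genes for YCR against YAL, 1 to 7 and 4 to 16 for OCRRF against OCR, 0 to 1 pathway genes for OCRRF against OAL, 0 to 2 and 4 to 13 for OAL against YAL (2 members without YAL replicate 4, and 4 pathway genes without any one OAL library), and 0 to 1 pathway promoter peaks in ATAC-seq (1 without OCRRF replicate 1). The cause of these shifts was not tested. Replicate numbers are shared names only, since correlations of deviations between same-numbered libraries ran from -0.264 to 0.216 over the comparisons. A replicate block gave 7 members and 19 pathway genes for OCRRF against OCR, 2 members for OCRRF against OAL, 0 pathway genes for YCR against YAL and 6 for OAL against YAL. Over all genes YCR against YAL had 68 calls, 454 with DESeq2, 368 with no filter and 7 with the block, and ATAC-seq had 273 calls, 762 with the block and 182 with DESeq2. Depth limits YCRRF replicate 4 most among the diet libraries, and 2 libraries in OCRRF and in each scramble limit every comparison with them.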
